A study of Rattus norvegicus with 56 samples.

Results

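The genes described here encode subunits of respiratory complex III, complex IV and the mitochondrial ATP synthase, measured in mammary glands from females of the inbred rat strain Wistar Furth. They were chosen by symbol, as every gene whose name starts with Uqcr, Cyc1 or Cycs, Cox4 to Cox8, or Atp5. The rule uses no measured value, but the genes were chosen with earlier results of these data known. This gave 40 of the 10411 genes that the array names: 8 of complex III, 16 of complex IV, 5 of the F1 head of ATP synthase, 10 of its membrane and stalk parts, called Fo and stalk, and 1 that encodes its inhibitor. No gene of cytochrome c itself and none of the mitochondrial genome was among the genes named by 1 probe set here, and 7 probe sets that carry a matching symbol beside another symbol were not used. Each gene is given by 1 probe set, a group of short probes for 1 transcript, that with the highest mean over the single-rat arrays.

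Complex III passes electrons from ubiquinol to cytochrome c, complex IV, the cytochrome c oxidase, passes them from cytochrome c to oxygen, and both move protons across the inner mitochondrial membrane. ATP synthase lets the protons flow back through the ring in its membrane part, Fo, and the rotation drives ATP formation in its catalytic head, F1. Several complex IV subunits exist in forms that are typical of certain tissues, such as the heart and muscle forms of subunits 6a, 7a and 8. In the mammary gland of a female that is not lactating, epithelial ducts lie in a pad of fat, and fat cells and epithelium both hold these complexes.

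The study compared rats given what the labels call RXR treatment with control rats. RXR usually stands for the retinoid X receptor, a nuclear receptor, while compound, dose and age were not stated in what was used here. Each group held 12 rats with 1 array each. In the treated group 6 rats were in diestrus and 6 in proestrus or estrus, stages that the labels join, and in the control group 9 and 3. Mixtures of the labelled targets of these rats were hybridised as well, as 6 pools of 2 rats and 4 pools of 3 rats in each group and as 1 pool of 12 rats in each, on 4 arrays. Rat 3 of each group had 2 repeat arrays, which makes 56 arrays in all. Titles and descriptions give the pools of 12 as pools and were followed, although the source field of 3 of their 4 arrays calls them individual.

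All values are on the log2 scale as deposited, where a difference of 1 is a doubling. Array medians lay between 7.40 and 7.48 log2. As in any bulk tissue sample, fewer cells of a type and less RNA per cell cannot be told apart. Some of the gland's own markers were bright. In control rats the means were 11.19 for the luminal keratin Krt8, 13.07 for milk protein Lalba and 12.73 for fat cell protein Fabp4. Others were dim, such as the luminal genes Krt7 at 6.33 and Esr1 at 5.83. A technical score, the position of an array along the main axis of differences between repeat arrays, ran from -10.0 to 8.19 in treated rats and from -15.1 to 12.5 in control rats. The lowest of these was control rat 15 and the highest control rat 3. Of the 4 arrays of the control pool of 12, replicate 4 stood apart from the others at 12.4. The arrays of rat 3 and of the pools of 12 set this axis, so their far positions on it are partly built in.

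Promoter windows of 300 bases were given for 33 of the 40 genes, by RefSeq on the rat build GRCr8, each with 250 bases before and 50 after the start of the gene. Windows of 4 genes are shown because they belong to a gene of each complex that was higher in treated rats, Uqcrq, Cox8a and Atp5mc3, and to Cox7a1, whose difference was near 0. They lie at chr10:38089929-38090228 on the minus strand for Uqcrq, chr1:213833574-213833873 on the minus strand for Cox8a, chr3:79220615-79220914 on the minus strand for Atp5mc3 and chr1:94568966-94569265 on the plus strand for Cox7a1. Capitals mark matches, on either strand, to motifs of factors known for nuclear genes of respiration.
Uqcrq: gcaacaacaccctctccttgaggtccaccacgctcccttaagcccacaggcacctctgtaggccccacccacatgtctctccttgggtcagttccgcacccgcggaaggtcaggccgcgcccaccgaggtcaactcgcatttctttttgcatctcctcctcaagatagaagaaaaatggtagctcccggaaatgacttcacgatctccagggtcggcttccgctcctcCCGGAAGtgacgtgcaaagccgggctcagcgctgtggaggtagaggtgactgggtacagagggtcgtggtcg
Cox8a: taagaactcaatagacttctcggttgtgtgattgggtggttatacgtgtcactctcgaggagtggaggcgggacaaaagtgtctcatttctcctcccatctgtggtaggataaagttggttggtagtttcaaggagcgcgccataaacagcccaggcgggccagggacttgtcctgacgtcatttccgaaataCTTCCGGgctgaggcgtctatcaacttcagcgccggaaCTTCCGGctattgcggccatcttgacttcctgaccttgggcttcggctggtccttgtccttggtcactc
Atp5mc3: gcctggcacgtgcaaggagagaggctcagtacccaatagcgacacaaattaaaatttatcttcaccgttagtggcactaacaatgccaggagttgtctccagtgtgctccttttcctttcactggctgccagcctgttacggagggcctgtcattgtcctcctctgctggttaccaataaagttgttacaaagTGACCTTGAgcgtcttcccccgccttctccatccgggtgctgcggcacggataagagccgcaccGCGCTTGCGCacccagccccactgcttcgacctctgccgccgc
Cox7a1: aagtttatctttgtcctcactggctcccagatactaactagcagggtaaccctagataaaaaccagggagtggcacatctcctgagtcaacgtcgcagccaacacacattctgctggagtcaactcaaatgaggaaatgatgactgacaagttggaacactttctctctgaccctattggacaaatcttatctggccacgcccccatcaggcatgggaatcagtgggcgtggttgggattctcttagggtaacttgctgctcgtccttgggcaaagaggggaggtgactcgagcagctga
The capitals are 1 ETS motif, CCGGAAG, in Uqcrq, 2 in Cox8a, and in Atp5mc3 1 NRF1 motif, GCGCA and GCGC with 1 base of any kind between them, and 1 ERR motif, TNAAGGTCA, while the Cox7a1 window holds none. Over the 33 windows the ETS motif was in 11 (33.3%), against 15.5% of the 8610 promoters of genes on the array and 9.22% of all 27457 promoters. The NRF1 motif was in 6 of 33 (18.2%), against 9.02% and 4.71%. The YY1 motif, ATGGCGGC, was in 1 window, that of Uqcrc1 (3.03%, against 5.41% and 2.76%), the ERR motif in 1, that of Atp5mc3 (3.03%, against 0.674% and 1.15%), and the DR1 motif of paired nuclear receptors, AGGTCA repeated with 1 base of any kind between both copies, in none, against 0.0116% and 0.0583%. The ERR and DR1 motifs share the letters AGGTCA. The exact DR1 string was in only 1 of the 8610 promoters of genes on the array. A search of 33 windows for it thus cannot show whether such sites are absent. There were 17 windows with none of these motifs, among them those of Uqcr10, Uqcrfs1 and Atp5f1b, which rose with treatment, as well as those of Cox7a1, Cox6a2, Cox6b2 and Cox8b, which did not pass the test. A match is only a run of letters and was not tested for binding.

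The comparison of treated with control rats asks how the treatment changed gland expression. Of the 40 genes, 31 were higher in treated rats and 0 lower by limma's moderated test at a Benjamini-Hochberg adjusted p under 0.05 over all 15866 probe sets. Over all probe sets, 8.46% were called higher and 9.59% lower. The median difference of the 40 genes was 0.33 log2, or 1.25-fold, against -0.00 over all probe sets, and 37 of 40 differences were above 0. At an unadjusted p under 0.05, 34 of the genes were higher and 0 lower, against 29.1% of all probe sets in either direction. All 8 genes of complex III and all 5 of F1 were called, 9 of 10 of Fo and the stalk, and 9 of 16 of complex IV. The inhibitor gene Atp5if1 was not.

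**Figure D1:**
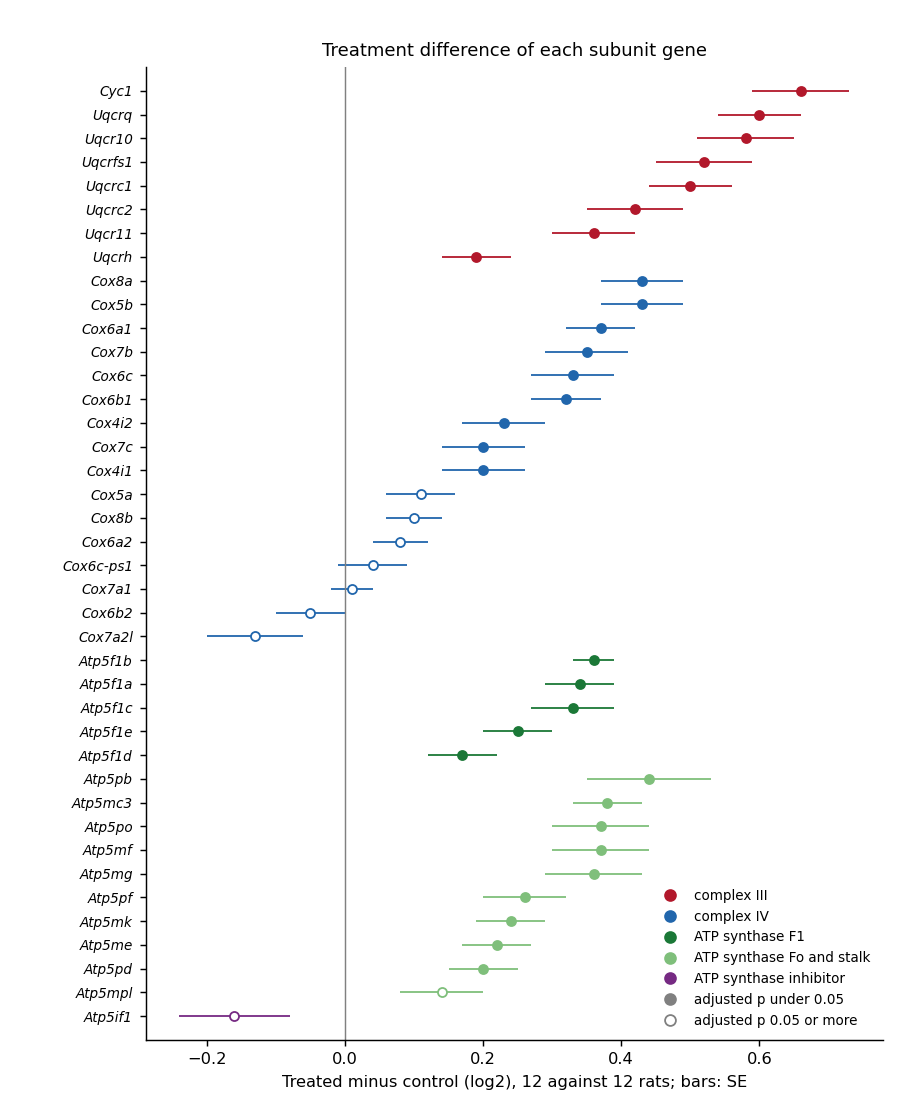
Treated minus control difference (log2, x axis) of each of the 40 genes (y axis), ordered within complex III (red), complex IV (blue), F1 (dark green), Fo and stalk (light green) and the inhibitor (purple), with bars for the SE and filled points for an adjusted p under 0.05, n = 12 and 12 rats. Cyc1 stands highest at 0.66 and Atp5if1 lowest at -0.16, and 7 of the 9 open points are complex IV genes.

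Complex III had the largest median difference of the groups, 0.51 log2. Cyc1, cytochrome c1, which hands electrons to cytochrome c, ranged from 10.93 to 11.48 log2 in treated rats (median 11.25) and from 10.36 to 10.85 in control rats (median 10.50). Every treated rat lay above every control rat, the difference was 0.66 log2 with an SE of 0.07, 1.58-fold, and limma's adjusted p was 1.18e-06. Uqcrq, a small subunit of the complex, ranged from 10.52 to 11.14 in treated rats (median 10.86) and from 10.06 to 10.51 in control rats (median 10.21), again with no overlap, and rose by 0.60 (SE 0.06, limma adjusted p = 5.62e-07). Its highest control value, in rat 15, lay just below the lowest treated value.

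The other subunits of complex III rose by less, down to Uqcrh. Uqcr10, another small subunit, rose by 0.58, and its groups did not overlap either, at 11.43 to 12.07 in treated rats and up to 11.37 in control rats. The Rieske iron-sulfur protein Uqcrfs1 rose by 0.52, the core proteins Uqcrc1 and Uqcrc2 by 0.50 and 0.42, and Uqcr11 by 0.36. Uqcrh, the hinge protein by which cytochrome c1 and cytochrome c meet, ranged from 10.62 to 11.11 in treated rats (median 10.93) and from 10.56 to 10.88 in control rats (median 10.71), so the groups overlapped. Its difference was 0.19 log2 (SE 0.05, limma adjusted p = 0.0077), and 8 of 12 treated rats lay above the highest control.

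In complex IV the median difference was 0.20 log2. Its dim genes, Cox4i2, Cox5a, Cox6a2, Cox6b2, Cox6c-ps1, Cox7a1 and Cox8b, had means from 5.35 to 7.54 log2. All genes of complex III and F1 had means above 10 log2, so these group medians set genes of unlike brightness side by side. Cox8a, the form of the small subunit 8 that most tissues use, ranged from 12.23 to 12.79 in treated rats (median 12.61) and from 12.04 to 12.35 in control rats (median 12.13). All treated rats but 1 lay above the highest control, and the difference was 0.43 (SE 0.06, limma adjusted p = 7.4e-06). Cox6a1, the liver-type form of subunit 6a, ranged from 11.08 to 11.53 (median 11.32) against 10.75 to 11.15 (median 10.91), with 10 of 12 treated rats above the highest control and a difference of 0.37 (SE 0.05, limma adjusted p = 1.77e-05). Of the other subunits that rose, Cox5b rose by 0.43, Cox7b by 0.35, Cox6c by 0.33 and Cox6b1 by 0.32. Cox4i1, the common form of the large nuclear-coded subunit 4, and Cox7c each rose by 0.20.

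The 7 genes of complex IV that did not pass were Cox5a (0.11), Cox8b (0.10), Cox6a2 (0.08), Cox6c-ps1 (0.04), Cox7a1 (0.01), Cox6b2 (-0.05) and Cox7a2l (-0.13). Cox7a2l, which joins complexes III and IV into larger assemblies, is the only bright one among them, at a mean of 10.52 log2, and had an adjusted p of 0.211 by limma, with 3 of 12 treated rats above the control mean. The probe set of Cox6c-ps1 stands for a copy of Cox6c with a pseudogene's name, and reads of the parent transcript on it cannot be told apart from its own.

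Tissue forms of complex IV were measured for 5 genes. Cox4i2, the form of subunit 4 known from lung, ranged from 6.69 to 7.23 in treated rats (median 6.95) and from 6.39 to 6.94 in control rats (median 6.75), rose by 0.23 (SE 0.06, limma adjusted p = 0.00471), and had 6 of 12 treated rats above the highest control. Cox6a2, the heart and muscle form of subunit 6a, ranged from 5.56 to 5.96 (median 5.76) against 5.59 to 5.85 (median 5.68), a difference of 0.08 (SE 0.04, limma adjusted p = 0.216). Cox6b2, the testis form of subunit 6b, ranged from 5.08 to 5.47 (median 5.33) against 5.16 to 5.57 (median 5.43), and its groups overlapped nearly throughout. Cox7a1, the heart and muscle form of subunit 7a, ranged from 6.70 to 6.98 (median 6.86) against 6.73 to 7.0 (median 6.83), a difference of 0.01 (SE 0.03, limma adjusted p = 0.912). Cox8b, the form of subunit 8 in heart, muscle and brown fat, ranged from 5.71 to 6.17 (median 5.98) against 5.59 to 5.96 (median 5.89), a difference of 0.10 (SE 0.04, limma adjusted p = 0.144).

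Changes of paired forms were then set against each other within each rat, as the tissue form minus the common form, for the 4 of 8 planned pairs that could be measured. Cox6a2, Cox6b2 and Cox8b did not pass on their own, so their pairs largely restate the rise of Cox6a1, Cox6b1 and Cox8a given above and show nothing further of the tissue forms. The difference fell in treated rats by 0.37 for Cox6b2 minus Cox6b1 (SE 0.08, permutation test, two-sided, adjusted p over the pairs = 0.0004), by 0.34 for Cox8b minus Cox8a (SE 0.08, permutation adjusted p = 0.00088) and by 0.29 for Cox6a2 minus Cox6a1 (SE 0.07, permutation adjusted p = 0.00088). It lay below the control mean in 12, 11 and 12 of 12 treated rats. For Cox4i2 minus Cox4i1 the change was 0.03 (SE 0.06, permutation adjusted p = 0.693), with 6 of 12 treated rats below the control mean. The probe sets of Cox6b2, Cox6a2 and Cox8b were among the dimmest of the array, brighter than 11.2%, 17.6% and 21.3% of probe sets. Of all probe sets with a mean under 6 log2, 1.95% were called higher, so how far dimness enters these pairs was not tested.

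**Figure D2:**
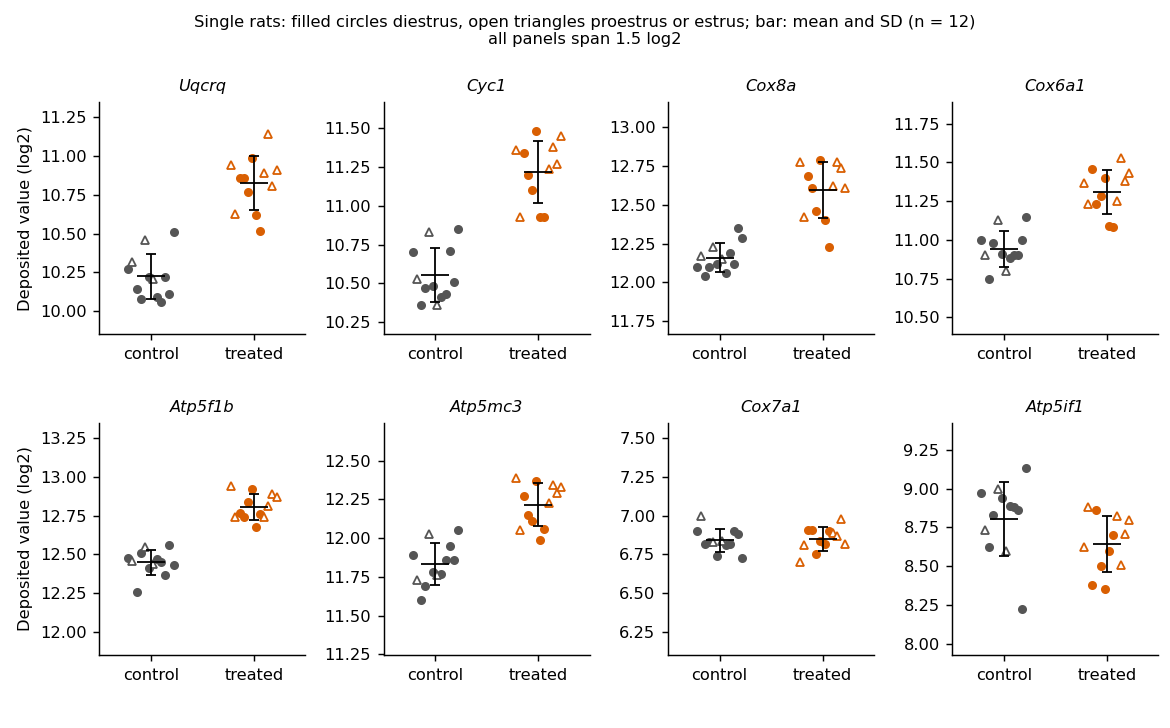
Deposited value (log2, y axis) of 8 genes in each control and treated rat, with filled circles for diestrus, open triangles for proestrus or estrus, and bars for the mean and SD (n = 12), all panels spanning the same range on the y axis. Uqcrq, Cyc1 and Atp5f1b separate the groups, Cox8a, Cox6a1 and Atp5mc3 nearly do, and Cox7a1 and Atp5if1 overlap.

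The 5 genes of F1 rose by a median of 0.33 log2. Atp5f1b, the catalytic beta subunit, ranged from 12.68 to 12.94 in treated rats (median 12.79) and from 12.26 to 12.56 in control rats (median 12.46), with no overlap. It rose by 0.36 (SE 0.03), had the smallest adjusted p of the 40 genes by limma, 3.55e-07, and varied little between rats of a group, with an SD of 0.08 in each. Atp5f1a, the alpha subunit that alternates with beta, ranged from 11.93 to 12.32 (median 12.04) against 11.50 to 11.97 (median 11.74) and rose by 0.34 (SE 0.05, limma adjusted p = 4.72e-05). The gamma subunit Atp5f1c, the rotating shaft, rose by 0.33, and the epsilon subunit Atp5f1e by 0.25. Atp5f1d, the delta subunit of the central stalk, ranged from 11.08 to 11.40 (median 11.27) against 10.92 to 11.32 (median 11.10), overlapped for most rats and rose by 0.17 (SE 0.05, limma adjusted p = 0.0124).

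Fo and the stalk had a median difference of 0.31 log2. Atp5mc3, which encodes the c subunit of the membrane ring, ranged from 11.99 to 12.39 in treated rats (median 12.25) and from 11.60 to 12.05 in control rats (median 11.82), and 10 of 12 treated rats lay above the highest control (0.38, SE 0.05, limma adjusted p = 1.77e-05). Atp5po, the stalk protein that ties F1 to the outer stalk, ranged from 10.75 to 11.34 (median 11.21) against 10.62 to 11.11 (median 10.73) and rose by 0.37 (SE 0.07, limma adjusted p = 0.000285). The stalk subunit b, Atp5pb, rose by 0.44, and the subunits Atp5mf by 0.37, Atp5mg by 0.36, Atp5pf by 0.26, Atp5mk by 0.24, Atp5me by 0.22 and Atp5pd by 0.20. A dimmer probe set of Atp5me had a difference of 0.01 (limma adjusted p = 0.926) beside that of the brighter one. Atp5mpl, a small proteolipid of the complex, ranged from 9.89 to 10.23 (median 10.07) against 9.53 to 10.19 (median 9.92) and did not pass (0.14, SE 0.06, limma adjusted p = 0.11).

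Atp5if1, which blocks ATP synthase from running backwards, ranged from 8.35 to 8.88 in treated rats (median 8.66) and from 8.22 to 9.13 in control rats (median 8.87). The lowest value of all was that of a control rat, and 3 of 12 treated rats lay above the control mean. Its difference was -0.16 (SE 0.08, limma adjusted p = 0.198), and its 2 dimmer probe sets gave 0.01 and 0.04, with limma adjusted p of 0.896 and 0.57.

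Whether a gene passed went with its brightness. Of the 31 genes with a mean of 10 log2 or more, 30 were called higher, with a median difference of 0.36, and Cox7a2l was the exception. Of all 1040 probe sets that bright, 23.0% were called higher, with a median of -0.03. Of the 9 genes below 10 log2, 1 was called, Cox4i2, and their median was 0.08. The part of brightness in the count was not tested further. Groups did not overlap for 4 genes, Cyc1, Uqcrq, Uqcr10 and Atp5f1b, while 0.384% of all probe sets were higher with no overlap. For 22 of the 31 called genes all 12 treated rats lay above the control mean.

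The mean level of the subunit genes also differed between rats of a group, and between arrays of the same rat. The mean of the 40 genes was 10.08, 10.17 and 10.21 log2 on the arrays of control rat 3. On those of treated rat 3 it was 10.29, 10.31 and 10.37. Technical scores, in the same order, were 12.5, -4.53 and -11.8 in control and 7.71, 6.45 and -14.2 in treated rat 3. The mean thus rose as the score fell on these arrays, which help to set that axis. With 1 array per rat, it ran from 10.22 in treated rat 9 to 10.55 in treated rat 11, and from 10.00 in control rat 5 to 10.29 in control rat 15. Control rats 15 and 8, at 10.29 and 10.26, thus lay as high as treated rats 3 and 8, at 10.29 and 10.26, and above treated rat 9, while all other control rats lay below all treated rats. Control rat 15 was also the rat with the lowest technical score, and without control rats 3 and 15, whose scores were extreme, the count stayed 31 of 40.

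Markers of fat and epithelium moved with the treatment as well. Of 13 adipocyte genes, 9 were higher and 1 lower (median 0.57 log2). Among the higher, Lep, the hormone leptin, had the smallest p (1.01, SE 0.11, limma adjusted p = 1.41e-06). Next were the glucose carrier Slc2a4 (1.86, SE 0.21), the glycerol channel Aqp7 (1.10, SE 0.14) and the enzyme Gpd1 (1.17, SE 0.15). Cfd, adipsin, was lower (-0.69, SE 0.09), and Plin1 (0.24), Plin4 (0.26) and Cd36 (0.07) did not pass. Of 18 luminal epithelial genes, 0 were higher and 11 lower (median -0.27), those of smallest p being the adhesion proteins Epcam (-0.43, SE 0.05, limma adjusted p = 3.94e-06) and Cdh1 (-0.39, SE 0.07), Muc1 (-0.50, SE 0.10) and Cldn7 (-0.47, SE 0.10). The log2 of the summed linear values, which the brightest genes dominate, was also taken. For the adipocyte list it ran from 14.53 to 15.50 in treated (median 15.17) and from 14.53 to 15.29 in control rats (median 14.80). For the luminal list it ran from 13.86 to 14.39 (median 14.12) and from 14.26 to 14.60 (median 14.41). The mean log2 level of the adipocyte list ran from 10.01 to 11.1 in treated and from 9.67 to 10.61 in control rats. Of other lists, basal epithelial genes had 1 of 10 higher and 5 lower, milk genes 0 of 8 higher and 4 lower, macrophage genes 2 of 7 higher and 1 lower, fibroblast genes 2 of 10 higher and 1 lower, and endothelial genes 0 of 8 higher and 1 lower. Of 17 skeletal muscle genes 1 was higher, Myl1, and of 9 lymphocyte genes none passed. Over all probe sets 8.46% were called higher and 9.59% lower, and the skeletal muscle and endothelial counts lie near these shares. Of 6 brown adipocyte genes that are not subunits, 1 was higher, Cpt1b, and Ucp1, which defines that cell type, was at 5.84 ± 0.09 in treated and 5.86 ± 0.09 in control rats (SD, n = 12).

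With the mean of the adipocyte list as a covariate, an alternative added after seeing the data, 15 of the 40 genes were called higher and 1 lower, Cox7a2l, with a median difference of 0.21 log2, while 5.76% of all probe sets were called higher. With the mean of the luminal list in its place, 0 were called by limma, 14 were higher at an unadjusted p under 0.05 (9.5% of all probe sets in either direction), the median was 0.14 and its typical SE rose from 0.06 to 0.09. The background fell too, to 0.0441% of all probe sets called higher. With both means, 1 gene was called, Atp5f1b, at 0.26 (limma adjusted p = 0.0294), against 0.466% of all, and the median was 0.13. The groups overlapped little in the luminal mean, which ran from 8.76 to 9.09 in treated and from 9.05 to 9.29 in control rats, so treatment and the luminal markers can hardly be told apart, and their part in the rise of the subunit genes was not tested beyond these fits.

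**Figure D3:**
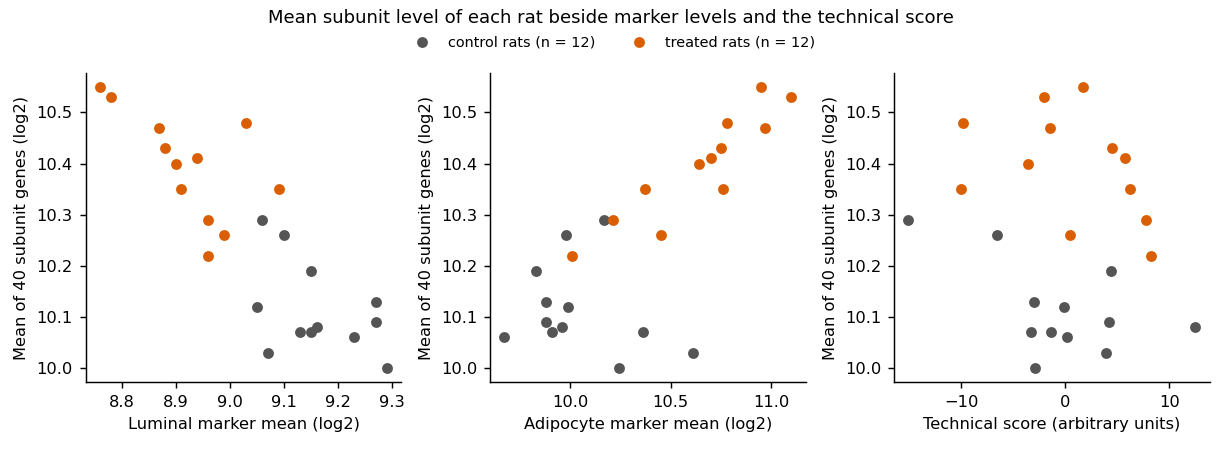
Mean of the 40 genes in each rat (log2, y axis) against its luminal marker mean, its adipocyte marker mean (both log2) and its technical score (arbitrary units), with grey points for 12 control and orange points for 12 treated rats. The groups share few values on the luminal axis, more on the adipocyte axis, and are mixed along the technical score.

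Genes around these complexes were looked up from lists of the same pathway. Over all probe sets, 8.46% were called higher and 9.59% lower. The list for complexes I and II, which feed electrons into the chain, had 40 of 45 genes higher and 0 lower by limma. Its median was 0.35 log2. Besides subunits it held assembly factors of complex I, of which Ndufaf3 and Ndufaf4 were called higher and Ndufaf5, Ndufaf7 and Ndufaf8 were not. The 4 of smallest p were Ndufc1 (0.63), Ndufs1 (0.81), Ndufa12 (0.53) and Sdhd (0.50). Assembly factors of complexes III, IV and ATP synthase had 9 of 28 higher and 0 lower, with a median of 0.12. Higd1a, which acts on complexes III and IV under low oxygen, rose by 0.88 (SE 0.09, limma adjusted p = 5.54e-07), more than any of the 40 subunit genes, and ran from 9.58 to 10.23 in treated and from 8.75 to 9.69 in control rats. Pet100, a complex IV assembly factor, rose by 0.49, Uqcc2, which helps to build complex III, by 0.32, and Cmc2 by 0.19.

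A list of mitochondrial carriers and pores, with Ckmt1 and Ckmt2, had 2 of 8 higher and 0 lower. They were Slc25a3, which brings in phosphate (0.21), and Slc25a5, which exchanges ADP for ATP (0.20). Slc25a4, a carrier of the same family, did not pass (-0.06, limma adjusted p = 0.788), nor did the pores Vdac1, Vdac2 and Vdac3. Of 11 regulators of mitochondrial genes, 1 was higher and 0 lower, with a median of 0.02. This count is near the share over all probe sets, 8.46% higher. The regulator called was Esrra, the receptor ERR alpha (0.14, SE 0.04, limma adjusted p = 0.0158). Tfam, which maintains mitochondrial DNA, had a difference of -0.10 (limma adjusted p = 0.291). Ppargc1a, a coactivator, had one of 0.02 (limma adjusted p = 0.699) at a dim level of 4.81. The vacuolar ATPase, a proton pump of other membranes, had 5 of 17 genes higher and 1 lower, with a median of 0.06. The 4 of smallest p were Atp6v0e1 (0.45), Atp6v0e2 (0.37) and Atp6v0b (0.23) above and Atp6v1c1 (-0.24) below 0.

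Oestrous stage was compared with treatment in the model. By limma 0 of the 40 genes passed, and 0.0% of all probe sets were called in either direction. At an unadjusted p under 0.05 there were 2 genes, against 3.66% of all probe sets. The median difference outside diestrus was 0.06 log2. The 3 genes of smallest p were Cox7a2l, Cox7b and Uqcrq, with differences of -0.16, 0.13 and 0.13 and a limma adjusted p of 0.999 for each. Cox7a2l was at 10.53 ± 0.17 (SD, n = 6) in diestrus and 10.37 ± 0.20 (SD, n = 6) outside it in treated rats, and at 10.63 ± 0.14 (SD, n = 9) and 10.47 ± 0.20 (SD, n = 3) in control rats.

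Within diestrus, 6 treated against 9 control rats, 21 genes were higher and 0 lower by limma, against 4.3% of all probe sets higher and 4.43% lower, with a median of 0.29 log2. At an unadjusted p under 0.05, 33 were higher and 1 lower, against 21.7% of all in either direction. In proestrus or estrus, 6 against 3 rats, 9 were higher and 0 lower, against 1.2% of all higher and 0.284% lower, and the median was 0.29 too. At an unadjusted p under 0.05, 27 were higher and 0 lower there, against 13.2% of all in either direction. The 9 genes called were Cyc1, Uqcrq, Uqcr10, Uqcrfs1, Uqcrc1, Cox8a, Cox6a1, Atp5f1b and Atp5mc3. The count outside diestrus fell to 0 without treated rat 2, 10, 12 or 14 or control rat 3 or 10, to 4 without treated rat 11 and to 7 without control rat 8, and was 16 without treated rat 3. The difference between the stages was tested as an interaction, which 0 genes passed by limma, also at an unadjusted p under 0.05, against 2.03% of all probe sets. Its median was 0.04, and the smallest p were those of Cox6a2 (-0.15), Cox6b2 (0.17) and Uqcrc1 (0.17, SE 0.13, limma adjusted p = 1.0).

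The pools hold the same rats and give a second reading of the same targets, not an independent test. In pools of 2, 24 genes were higher and 0 lower by limma, against 5.15% of all probe sets higher and 3.67% lower, with a median of 0.30 log2. At an unadjusted p under 0.05, 30 were higher and 0 lower in these pools, against 20.8% of all in either direction. In pools of 3, 18 were higher and 0 lower, against 3.26% of all higher and 2.97% lower, and the median was 0.23 against -0.04 over all probe sets. At an unadjusted p under 0.05, 27 were higher and 0 lower in the pools of 3, against 19.0% of all in either direction. All 24 and all 18 were among the 31 called in single rats, and all 31 had differences above 0 in both sets of pools. The count in pools of 3 fell to 8, 5 and 8 without treated pool 1, 2 or 3 and to 8 and 7 without control pool 1 or 3, and was 5 without the pools that hold rat 3.

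Cyc1 was at 11.33, 11.37, 11.27 and 11.12 log2 in the treated pools of 3 and at 10.45, 10.69, 10.75 and 10.72 in the control pools, with a difference of 0.62 and no overlap. Uqcrq was at 10.94, 10.95, 10.84 and 10.65 against 10.19, 10.44, 10.40 and 10.32, also without overlap. Atp5f1b, at 12.78, 12.95, 12.84 and 12.77 against 12.53, 12.60, 12.39 and 12.51, separated the groups in the same way. Atp5f1d, at 11.16, 11.44, 11.42 and 11.23 against 11.31, 11.17, 11.33 and 11.37, did not separate them. Groups did not overlap for 10 of 40 genes in pools of 2 and 22 in pools of 3, against 2.89% and 4.71% of all probe sets.

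The pools of 12 are 1 mixture a group and allow no test, since their 4 arrays show the spread of the array alone. Cyc1 was at 11.28, 11.24, 11.35 and 11.36 in the treated and at 10.66, 10.71, 10.71 and 10.45 in the control mixture. Cox8a was at 12.56, 12.60, 12.54 and 12.51 against 12.19, 12.23, 12.18 and 12.25. All 31 genes called in single rats were higher in the treated mixture, by 0.13 to 0.67 log2, and 36 of 40 had a difference above 0, with a median of 0.30 against -0.02 over all probe sets. The arrays of the mixtures did not overlap for 31 genes, against 9.54% of all probe sets.

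**Figure D4:**
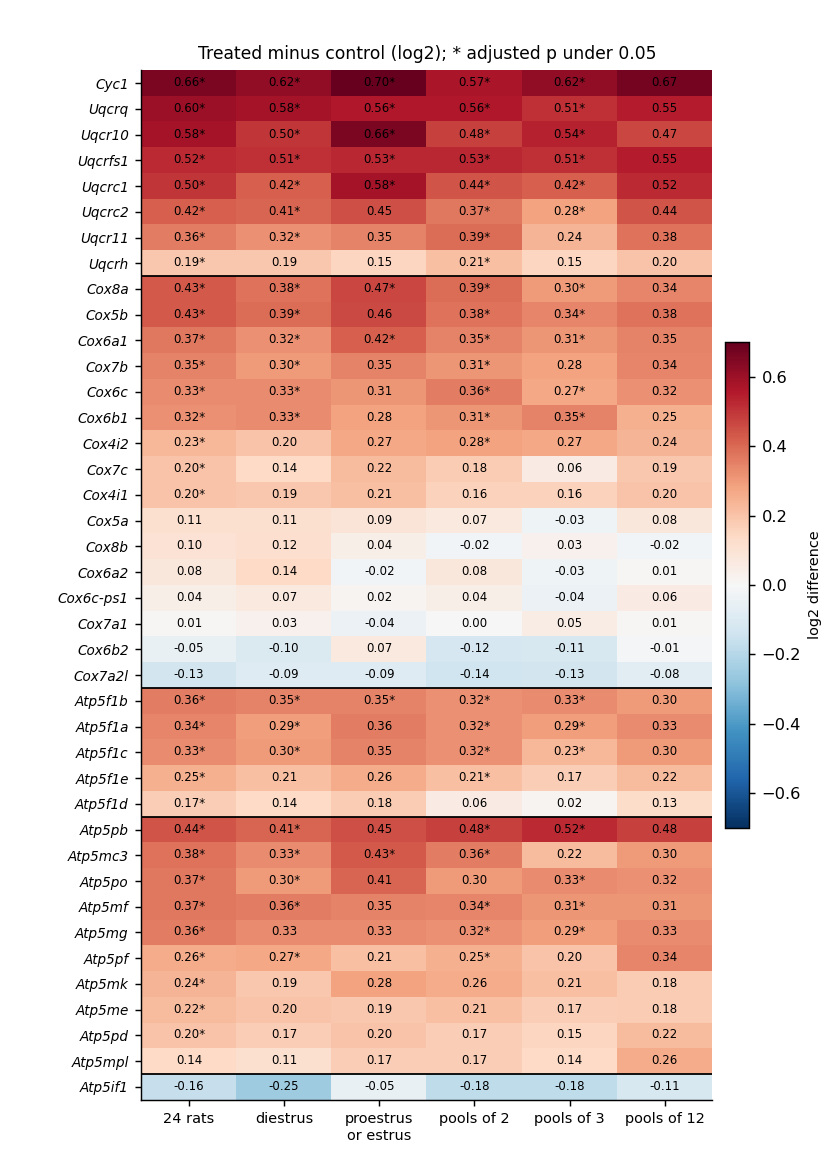
Treated minus control difference (log2, colour and number) of each of the 40 genes (rows, grouped by complex as above) in single rats, in each stage and in pools of 2, 3 and 12 (columns), with asterisks for a limma adjusted p under 0.05; pools of 12 were not tested. The 31 genes called in single rats are above 0 in every column, while Cox5a, Cox6a2, Cox6b2, Cox6c-ps1, Cox7a1 and Cox8b change sign between columns.

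Repeat arrays of rat 3 and of the mixtures of 12 used the same targets, so they give the error of the array alone. The spread between rats also holds the error of labelling each rat. Over the 40 genes the median SD between rats of a group was 0.143 log2, against 0.0851 between repeat arrays, and 37 genes varied more between rats than between repeat arrays. The ratio of these SDs ran from 0.777 for Cox7a1, for which rats varied no more than repeat arrays of the same targets, to 3.51 for Cox8a. Pools lay close to the mean of their rats, with a median absolute difference of 0.0794 in pools of 2 and 0.0806 in pools of 3. The median signed difference, pool minus rats, was 0.04 and 0.06, so pools tended to lie above their rats. Pools also had lower technical scores. Control means were -5.81 in pools of 2, -6.35 in pools of 3 and -0.613 in single rats. Treated means were -5.82, -6.03 and 0.62. Whether the shift goes with pooling or with the score was not tested. The mean of the 40 genes was 10.12 in single control rats and 10.20 in control pools of 3, against 10.40 and 10.41 in the treated group.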

How the data were processed

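Total RNA of each gland was labelled rat by rat and pools were mixed from labelled, fragmented targets, per the labels. For 15923 probe sets the authors deposited 1 log2 value per array, made from the scans by steps that the labels do not name. The log2 unit was inferred: the range, 4.12 to 14.08, passes 11.1, the largest natural log that a 16-bit scan can give. Software and normalization: not given in the sources used here. The deposited values entered unchanged, except that 57 control probe sets were dropped. Symbols came from the platform annotation and were updated by Entrez ID to RefSeq genes of GRCr8 (12748 of 12783 probe sets with 1 symbol); 312 probe sets had several symbols and 2771 none.

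Treatment was tested with limma 3.58.1 (lmFit, eBayes, R 4.3.3) in single rats, within each stage, and in pools of 2 and of 3, fitted separately, and stage and the interaction in single rats, each adjusted over 15866 probe sets. The fit was tested on simulated data. Isoform pairs used 100000 resamples (scipy 1.17.1). Sample values were named for the 2 genes of smallest p and the gene of smallest difference in each group of subunits, and for tissue forms, and up to 4 called genes of each other list described as a pathway. The genes, lists and tests were chosen with earlier results of these data known.

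Rat numbers shared by both groups were not taken to pair animals. The number of arrays limits the precision. Alternatives covered array scaling, dim probe sets, probe set choice, the prior, array weights, the threshold, stage, the technical score, repeat arrays, a replicate block and leaving out each array.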

Additional observations from a re-analysis of the deposited data

Results flagged for a closer look

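Among 153 groups of 4 to 10 arrays of the genes given by sample, 14 held an array far from the others, and chance alone sets apart about 1 in 20 groups. Atp5f1a was at 12.23 log2 in treated pool of 3 replicate 2, with the next array at 12.14, and at 11.71 in control pool of 12 replicate 4, with the next at 11.83. Cox7a1 was at 7.0 in that same control array, with the next at 6.80. This array had the outlying technical score, on an axis that it helped to set. Atp5if1 was at 9.05 in control pool of 3 replicate 4, with the next at 8.87. Among the arrays of the treated pool of 12, Atp5po was at 11.22 in replicate 3 (next 11.15), Cox4i2 at 7.16 in replicate 4 (next 7.0) and Uqcrh at 10.92 in replicate 2 (next 11.03). Uqcrh was also high, at 11.22, in treated pool of 2 replicate 1, and Cox8b low, at 5.79, in treated pool of 3 replicate 3 (next 6.01).

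Among single rats, Cox4i2 was at 6.39 in control rat 12 in diestrus (next 6.68). Cox6a2 was low, at 5.56, in treated rat 6 in diestrus (next 5.80) and high, at 5.96, in treated rat 2 outside diestrus (next 5.72). Control rat 15, in diestrus, was set apart for Cox8b and for Uqcrq, with Cox8b at 5.59 (next 5.85) and Uqcrq at 10.51 (next 10.27), and has the lowest technical score of the rats.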

How the results depend on the processing

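In single rats the count of 31 higher genes stayed between 28 and 31 under the alternatives of scaling, filter, probe set, prior, weights, threshold, stage, technical score, repeat arrays and block, and at 30 to 32 when each rat was left out. Quantile normalization gave 29 higher and 1 lower, Cox7a2l (-0.19), and moved the median from 0.33 to 0.24. With rat number as a replicate block the count was 28, against 30 for the same rats without a block; same-numbered rats deviated together at correlations of -0.389 to 0.358, so the numbers are not taken to pair rats. Of alternatives added after seeing the data, the marker covariates moved the count, to 15 (adipocyte), 0 (luminal) and 1 (both); the cause was not tested. Leaving out the pools that hold rat 3 gave 5 in pools of 3. Leaving out each array gave 16 to 25 in pools of 2, 5 to 19 in pools of 3, 14 to 25 in diestrus, 0 to 16 outside it, and 0 to 0 for stage and for the interaction.

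Differences near 0 turned sign under some settings, with the cause not tested. Cox6b2 turned to 0.0010 and Cox7a1 to -0.0020 both with the block and in the same rats without it. Atp5if1 turned to 0.011 with probe sets free of a cross-hybridisation suffix. With covariates, Atp5if1 turned to 0.14 (adipocyte), 0.036 (luminal) and 0.13 (both), Cox6b2 to 0.13, 0.023 and 0.083, Cox7a1 to -0.0035 (luminal) and Cox4i2 to -0.030 (both). Leaving out 1 rat gave -0.0035 to 0.023 for Cox7a1 and -0.00083 to 0.047 for Cox4i2 minus Cox4i1, and the other pairs kept their sign. Dim probe sets and the small number of rats outside diestrus limit what can be seen.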
